A study of Mus musculus with 11 samples.

Results

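De novo lipogenesis builds fatty acids from carbohydrate carbon, and 10 genes for its enzymes, its citrate carrier and its regulators were followed in the gonadal white adipose tissue (WAT) of mice on a high fat diet (HFD). The genes were listed by symbol from their known function, with earlier results of these data known. Their counts thus describe the data and do not test the list. All 10 are among the 12787 genes of the deposited table. Whole-tissue RNA came from 5 male C57Bl6/J mice on the HFD with vehicle and 6 on the HFD containing iodomethylcholine (IMC), a non-lethal inhibitor of the bacterial enzyme that cleaves choline to trimethylamine. Both groups ate a diet with 60% fat for the same length of time and by design differed in the 0.06% w/w IMC in the diet. In HFD-fed mice the paper also reports less weight gain, lower fat mass and lower fed plasma insulin with IMC. Whether these go with the lipogenic differences was not tested. A further control library had been dropped by the submitters for its quality. Each mouse gave 1 library with between 22320022 and 25155366 reads on the listed genes. In the labels no cage, batch or time of collection is named.

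In this pathway, citrate leaves the mitochondrion through the carrier encoded by Slc25a1 and is cleaved to cytosolic acetyl-CoA by ATP citrate lyase (Acly), while acetyl-CoA synthetase 2 (Acss2) makes acetyl-CoA from acetate. Acetyl-CoA carboxylases (Acaca and Acacb) make malonyl-CoA, fatty acid synthase (Fasn) joins these units to palmitate, and malic enzyme 1 (Me1) supplies NADPH for the reductions. Transcription is driven by SREBP-1 (Srebf1), which responds to insulin, and by ChREBP (Mlxipl), which responds to glucose metabolites, and Thrsp encodes Spot 14, a small protein associated with lipogenic tissues. In white fat of rodents the pathway is low on fat-rich diets and rises with carbohydrate and insulin.

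On the deposited scale 9 of the 10 genes were higher in IMC-treated mice and 0 were lower, whereas relative to 12 adipocyte marker genes 0 were higher and 7 were lower. Both counts use an adjusted p under 0.05 over all genes by limma, a linear model that shares the estimate of the variance across genes, with Benjamini-Hochberg (BH) adjustment. For comparison, 20.0% of all listed genes were called higher and 21.0% lower on the deposited scale, and 0.657% higher and 91.9% lower relative to the adipocyte markers. The 7 of 10 called lower on the second scale were thus not above the share of all genes. Expression is given as log2 CPM, the log2 of read counts divided by the scaled size of the library, and log2 fold changes above 0 stand for higher levels with IMC. The median log2 fold change of the 10 genes was 0.46, or 1.37-fold, beside -0.03 over all genes. The groups were fully separate for 5 of the genes, namely Srebf1, Mlxipl, Acaca, Me1 and Acss2, and 12.5% of all listed genes were higher without overlap. The single gene that did not pass was Thrsp.

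**Figure D1:**
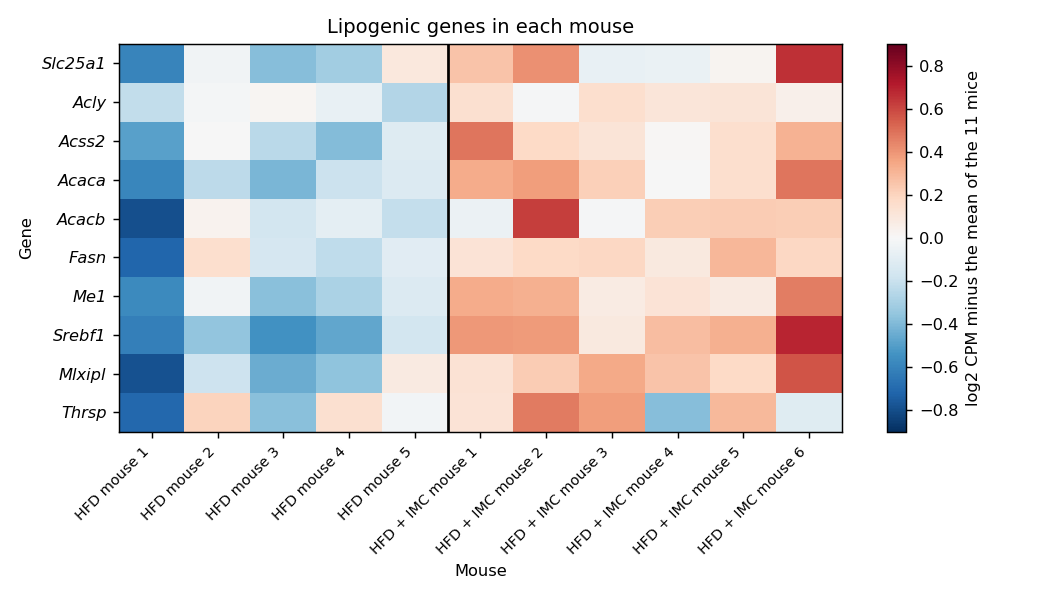
Expression of the lipogenic genes (rows) in each mouse (columns), as log2 CPM minus the mean of the 11 mice for that gene on the deposited scale, with the groups divided by the black line. HFD mouse 1 was the lowest control mouse for 9 of the 10 genes, and HFD + IMC mouse 6 was the highest treated mouse for 5. Relative to 12 adipocyte markers, not drawn here, the sign of all 10 group differences was negative, with Srebf1 at -0.0021. On that scale 7 of the 10 were called lower, where 91.9% of all genes were called lower.

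To place the 2 regulators that changed most, the most abundant enzyme and the gene that did not pass beside their regulatory sequence, the 250 bases before an annotated start are shown for Srebf1, Mlxipl, Fasn and Thrsp. They are printed 5′ to 3′ on the strand of the gene, from RefSeq on GRCm38.p6, the build called mm10 by the authors. Capitals mark 3 short motifs found by letters on either strand. These are the CCAAT box (CCAAT), the GC box (GGGCGG) and the E-box (CACGTG). For Srebf1 the window lies on the minus strand of chromosome 11 at chr11:60210472-60210721, before the most downstream of 3 annotated starts. For Mlxipl it lies on the plus strand of chromosome 5 at chr5:135089640-135089889, before the upstream of 2 annotated starts. The Fasn window lies on the minus strand at chr11:120824548-120824797 and the Thrsp window on the minus strand at chr7:97417551-97417800.
Srebf1: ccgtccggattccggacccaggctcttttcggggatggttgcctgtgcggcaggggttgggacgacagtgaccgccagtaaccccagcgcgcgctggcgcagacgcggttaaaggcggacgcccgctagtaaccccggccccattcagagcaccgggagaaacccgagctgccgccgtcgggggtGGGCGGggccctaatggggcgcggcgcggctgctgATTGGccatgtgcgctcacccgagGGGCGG
Mlxipl: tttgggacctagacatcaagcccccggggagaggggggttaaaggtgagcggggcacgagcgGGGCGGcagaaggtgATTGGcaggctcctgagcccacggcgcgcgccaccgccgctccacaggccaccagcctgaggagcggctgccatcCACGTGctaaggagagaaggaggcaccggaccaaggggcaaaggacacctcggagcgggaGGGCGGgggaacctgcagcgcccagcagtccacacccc
Fasn: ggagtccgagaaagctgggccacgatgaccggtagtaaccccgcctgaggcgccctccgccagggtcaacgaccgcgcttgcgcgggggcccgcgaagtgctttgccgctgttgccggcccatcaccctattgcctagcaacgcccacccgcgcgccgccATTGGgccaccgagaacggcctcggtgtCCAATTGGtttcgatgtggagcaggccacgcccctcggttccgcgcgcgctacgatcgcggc
Thrsp: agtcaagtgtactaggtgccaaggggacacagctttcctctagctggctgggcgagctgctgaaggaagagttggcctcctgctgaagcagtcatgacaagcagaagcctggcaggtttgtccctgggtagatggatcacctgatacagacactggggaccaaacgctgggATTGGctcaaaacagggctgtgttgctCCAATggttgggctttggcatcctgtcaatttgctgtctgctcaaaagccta

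Among the 14 windows annotated for the 10 genes, 9 held a CCAAT box, compared with 33.8% of the 32851 windows of the same length in the RefSeq table. A GC box was found in 7 of the 14 windows and in 32.7% of all windows. An E-box, which occurs in pairs in the element bound by ChREBP, was found in 2 windows, upstream of Mlxipl and of Slc25a1, and in 6.02% of all windows. The core of the sterol regulatory element searched here (CACCCCAC) was in none of the 14 windows and in 2.58% of all windows. Only these exact letters were searched, so elements with other letters would be missed. A pair of E-box letters (CACGNG) on either strand, separated by 5 bases, was also in none and in 0.0731% of all windows. In Srebf1 the CCAAT box began 30 bases before the start, between GC boxes 65 and 6 bases before it. Fasn held CCAAT letters 90, 62 and 59 bases before its start, the last 2 overlapping, and Thrsp at 79 and 52 bases. The E-box of Mlxipl began 98 bases before its start. For Acaca and Acacb the only windows, at chr11:84195188-84195437 and chr5:114165268-114165517, lay inside gene spans that begin at 84129672 and 114146535. These windows therefore do not cover the first annotated start of either carboxylase gene. The Thrsp window also lies partly inside its gene span, which begins at 97417730 on the minus strand. Windows of Acss2 and Me1 likewise reach into their gene spans. The table of reads is per gene, so which start was used in this tissue was not measured, and the letters alone do not show that a factor was bound.

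Among the regulators, Srebf1 had the largest change of the 10 genes on the deposited scale, but showed none relative to the adipocyte markers (log2 fold change -0.0021). The gene spans 60199089 to 60222581 on the minus strand of chromosome 11. Its log2 CPM in the 5 HFD control mice was 7.32, 7.58, 7.39, 7.47 and 7.77, and in the 6 IMC-treated mice it ran from 8.02 through a median of 8.29 to 8.62. Every treated mouse was above every control mouse, with a gap between the groups wider than the SD of either (0.18 and 0.20). The difference was 1.73-fold, a log2 fold change of 0.79 (SE 0.10, limma, BH-adjusted p = 8.95e-05). Tested two-sided over every assignment of the mice to groups of 5 and 6, the exact permutation p was 0.00216, and no smaller value can be reached with these numbers of mice. Srebf1 overlaps the listed gene Rai1 on the opposite strand, which had a log2 fold change of -0.07 (SE 0.07, limma, BH-adjusted p = 0.427).

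Mlxipl, on the plus strand of chromosome 5 from 135089890 to 135138382, was expressed at 4.63, 5.24, 4.97, 5.06 and 5.50 log2 CPM in HFD control mice. In IMC-treated mice it had a lowest value of 5.55, a median of 5.66 and a highest value of 5.98. The groups were separate but close, since HFD mouse 5 was only just below the lowest treated mouse. The difference was 1.54-fold (log2 fold change 0.62, SE 0.13, limma, BH-adjusted p = 0.00188, exact permutation p = 0.00216). Relative to the adipocyte markers, its log2 fold change was -0.17 (SE 0.12, limma, BH-adjusted p = 0.196). The values do not separate the alternative starts of either regulator, from which different protein forms are made.

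Thrsp, on the minus strand of chromosome 7 from 97412938 to 97417730, varied most within the groups. Control mice had 6.28, 7.19, 6.61, 7.13 and 6.96 log2 CPM, and treated mice ranged from 6.61 to 7.45 with a median of 7.20. Of the 6 treated mice, 3 were above all control mice, and HFD + IMC mouse 4 was just below HFD mouse 3. The log2 fold change of 0.28 (SE 0.18, limma, BH-adjusted p = 0.228) had a 95% interval from -0.10 to 0.66, which includes 0. The exact permutation test gave p = 0.216. Without HFD mouse 1 the log2 fold change was 0.14. At 1731 to 3987 reads per mouse, the counting error of Thrsp was at most 0.03 on the log2 scale, well under the SD of either group (0.38 and 0.32).

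**Figure D2:**
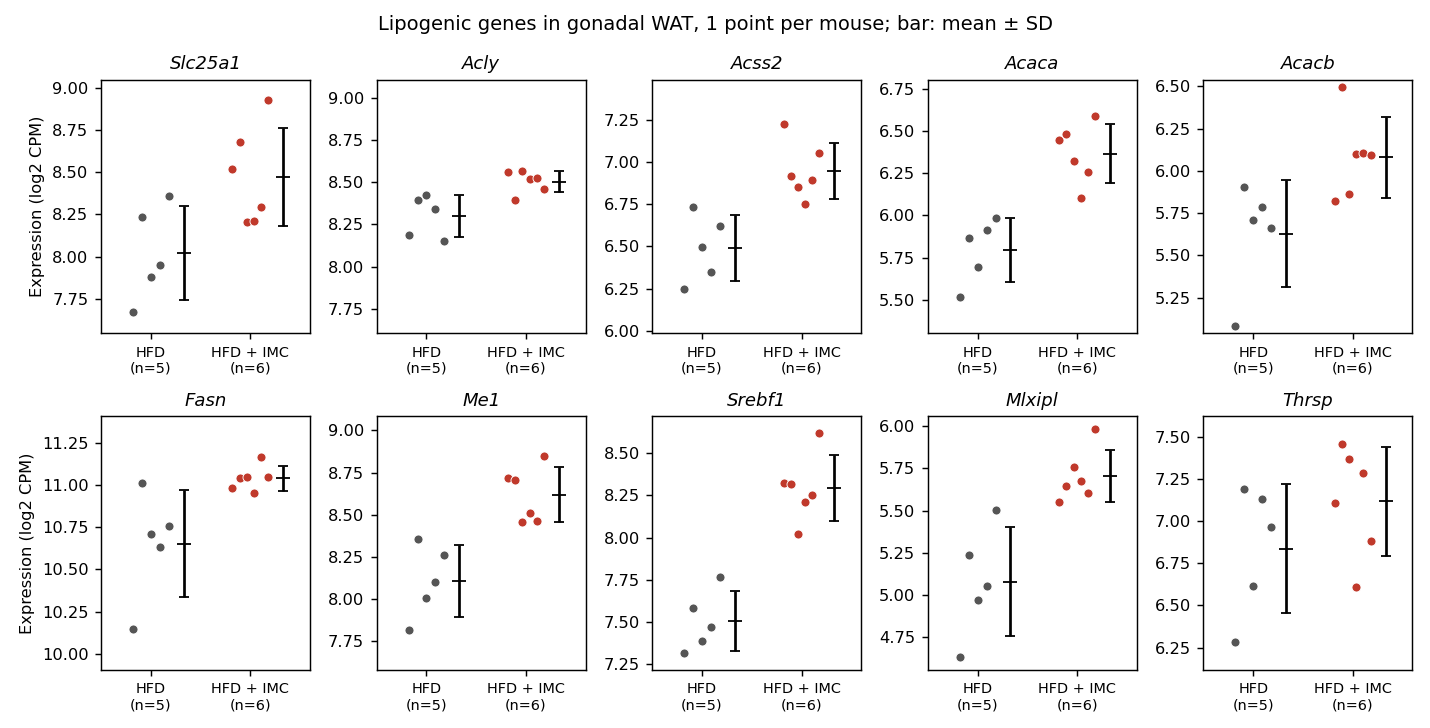
Expression (log2 CPM, deposited scale) of each lipogenic gene in 5 HFD and 6 HFD + IMC mice, with 1 point per mouse and the mean ± SD beside the points. All y-axes span the same range of 1.5. Srebf1, Mlxipl, Acaca, Me1 and Acss2 show no overlap, while for Thrsp 3 of 6 treated mice lie within the range of the control mice. Relative to 12 adipocyte markers all 10 differences were negative, with Srebf1 at -0.0021. On that scale 7 of the 10 were called lower, where 91.9% of all genes were called lower.

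The genes that provide acetyl-CoA, Acly, Acss2 and Slc25a1, each rose on the deposited scale and were each lower relative to the adipocyte markers. Acly, on the minus strand of chromosome 11 from 100476353 to 100528000, had the smallest rise. Its log2 CPM was 8.19, 8.39, 8.43, 8.34 and 8.15 in HFD control mice, and 8.40 to 8.56 with a median of 8.52 in IMC-treated mice. Of the 6 treated mice, 5 were above all control mice and HFD + IMC mouse 2 was within the control range. The difference was 1.15-fold (log2 fold change 0.20, SE 0.06, limma, BH-adjusted p = 0.0146, exact permutation p = 0.00649).

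Acss2, on the plus strand of chromosome 2 from 155517948 to 155585724, had 6.25, 6.74, 6.50, 6.35 and 6.62 log2 CPM in control mice. In treated mice it had a lowest value of 6.75, a median of 6.91 and a highest value of 7.22. The groups were separate, though HFD mouse 2 lay just below HFD + IMC mouse 4. The difference was 1.37-fold (log2 fold change 0.46, SE 0.10, limma, BH-adjusted p = 0.00221, exact permutation p = 0.00216). Listed genes that overlap it on the opposite strand did not pass (Gss with a log2 fold change of 0.07 and Ggt7 with 0.19).

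Slc25a1, on the minus strand of chromosome 16 from 17925223 to 17928219, had 7.67, 8.24, 7.88, 7.95 and 8.36 log2 CPM in control mice. Treated mice ranged from 8.20 through a median of 8.41 to 8.93, and only 3 of them were above all control mice. Its log2 fold change of 0.45 (SE 0.15, limma, BH-adjusted p = 0.0258, exact permutation p = 0.0390) was the least certain of the 9 that passed. The call was lost when HFD mouse 1, HFD mouse 3, HFD mouse 4 or HFD + IMC mouse 2 was left out, with adjusted p by limma of 0.0713, 0.0631, 0.0550 and 0.0542, respectively.

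Both carboxylases rose on the deposited scale, and relative to the adipocyte markers their log2 fold changes were -0.22 for Acaca and -0.34 for Acacb. Acaca encodes the cytosolic enzyme that feeds fatty acid synthesis and lies on the plus strand of chromosome 11 from 84129672 to 84401651. Its log2 CPM was 5.52, 5.87, 5.70, 5.92 and 5.99 in HFD control mice and 6.10 to 6.59, with a median of 6.38, in IMC-treated mice. All treated mice were above all control mice, a 1.48-fold difference (log2 fold change 0.57, SE 0.10, limma, BH-adjusted p = 0.00059, exact permutation p = 0.00433).

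Acacb encodes the carboxylase of the outer mitochondrial membrane, whose malonyl-CoA restrains fatty acid entry for oxidation, and lies on the plus strand of chromosome 5 from 114146535 to 114250761. Control mice had 5.08, 5.90, 5.71, 5.79 and 5.66 log2 CPM, and treated mice ranged from 5.82 to 6.50 with a median of 6.10. HFD mouse 1 was far below the other control mice, HFD + IMC mouse 2 was the highest, and HFD mouse 2 was above the 2 lowest treated mice. The log2 fold change was 0.45 (SE 0.14, limma, BH-adjusted p = 0.0228, exact permutation p = 0.0152), and without HFD mouse 1 it was 0.31, still past the threshold.

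Fasn, on the minus strand of chromosome 11 from 120805846 to 120824547, had the highest level of the 10 genes. Its log2 CPM was 10.15, 11.01, 10.71, 10.63 and 10.76 in HFD control mice. In IMC-treated mice it had a lowest value of 10.95, a median of 11.04 and a highest value of 11.16. Treated mice were thus closely grouped (SD 0.07) and control mice were not (SD 0.32), and HFD mouse 2 was the only control mouse within the range of the treated mice. The difference was 1.31-fold on the deposited scale (log2 fold change 0.39, SE 0.12, limma, BH-adjusted p = 0.0222, exact permutation p = 0.00649) and negative relative to the adipocyte markers. Without HFD mouse 1 the log2 fold change was 0.26, still past the threshold.

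Me1, on the minus strand of chromosome 9 from 86581371 to 86695953, had 7.81, 8.35, 8.01, 8.10 and 8.26 log2 CPM in control mice and 8.46 to 8.85, with a median of 8.61, in treated mice. All treated mice were above all control mice. The difference was 1.42-fold (log2 fold change 0.51, SE 0.10, limma, BH-adjusted p = 0.00145, exact permutation p = 0.00216).

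Because reads accumulate with transcript length, levels were compared between genes as log2 CPM per kilobase of annotated exon. By this level Fasn was first with 7.20 ± 0.32 (SD, n = 5) in HFD control mice, followed by Slc25a1 with 6.91 ± 0.28 (SD, n = 5) and Me1 with 6.16 ± 0.21 (SD, n = 5). Acly had a level of 5.90, Thrsp of 5.71 and Srebf1 of 5.01 log2 CPM per kilobase. Acss2 was well below them at 3.14, then Mlxipl at 2.61, Acacb at 2.36 and Acaca was the lowest at 1.70. By the mean level over all 11 mice, Fasn was in the 98.5th percentile of the 12323 genes with a length and Acaca in the 37.1st. The order was the same in IMC-treated mice. Neighbours in this order were not all apart, since Acly was above Thrsp in only 2 of 5 control mice and 3 of 6 treated mice. Thrsp was above Srebf1 in 5 of 5 control mice but in 4 of 6 treated mice, and Fasn was above Slc25a1 in 5 of 5 and 5 of 6. Exons of all annotated transcripts were counted in the length, so genes with long, rarely used exons can be placed too low.

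The spread among control mice was shared by the genes. HFD mouse 1 was the lowest control mouse for every gene except Acly, for which HFD mouse 5 was lower. HFD mouse 2 was the highest control mouse for 5 genes and HFD mouse 5 for 4. Averaged over the 10 genes, centred log2 CPM was -0.61 in HFD mouse 1 and between -0.31 and -0.05 in the other control mice. It was between 0.06 and 0.35 in the treated mice. The mean of the 12 adipocyte markers put the control mice in the same order as the mean of the 10 genes. It ran from 8.93 log2 CPM in HFD mouse 1 to 9.42 in HFD mouse 2. With HFD mouse 1 left out, 8 of the 10 genes were called higher and Slc25a1 was not.

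Whole tissue was sequenced, and on the deposited scale the adipocyte markers rose with the lipogenic genes while most macrophage markers fell. Of 12 adipocyte markers 11 passed the test as higher with IMC and 0 as lower, among them Adipoq (log2 fold change 1.18), the adiponectin gene, and Plin1 (log2 fold change 0.84), which encodes the lipid droplet coat perilipin 1. Their mean level was between 8.93 and 9.42 log2 CPM in control mice and between 9.77 and 10.09 in treated mice, a mean difference of 0.79. Macrophage markers had 0 of 12 higher and 10 lower, with log2 fold changes of -0.58 for Adgre1 and -0.61 for Cd68, and a summed level of 12036 to 16277 CPM in control mice and 6401 to 10267 CPM in treated mice. More adipocytes and more lipogenic RNA per adipocyte cannot be told apart in these samples. Measured against the mean of the 12 adipocyte markers in each mouse, all 10 lipogenic genes had a negative difference. Of these, 7 passed the test as lower by limma with adjustment over all genes, beside 91.9% of all genes on this scale. They were Acly (log2 fold change -0.59, BH-adjusted p = 7.97e-05 by limma), Thrsp (-0.51, BH-adjusted p = 0.00142 by limma), Fasn (-0.40, BH-adjusted p = 0.00473 by limma), Acacb, Slc25a1, Acss2 and Me1. Acaca (-0.22), Mlxipl (-0.17) and Srebf1 (-0.0021) did not pass. This scaling subtracts the same value from every gene of a mouse, and it moved the median of all genes to -0.82. Distances from that median cannot change by it, and on either scale the 10 genes lay between 0.23 and 0.81 above the median. The markers are themselves regulated in adipocytes, so the scale relative to them does not count cells.

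**Figure D3:**
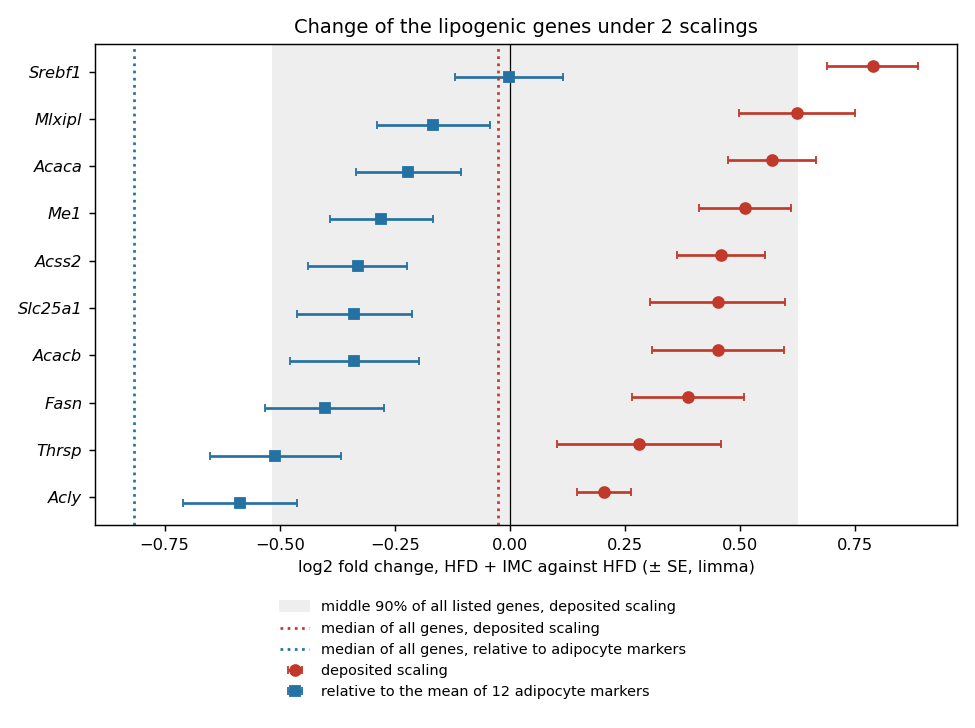
Log2 fold change (x-axis, HFD + IMC against HFD, ± SE by limma) of each lipogenic gene on the deposited scale (red circles) and relative to the mean of 12 adipocyte markers in each mouse (blue squares). The grey band holds the middle 90% of all listed genes on the deposited scale, from -0.51 to 0.62, and dotted lines mark the median of all genes on each scale (-0.03 and -0.82). The genes lie right of 0 on the first scale and at or left of 0 on the second, with Srebf1 uppermost on both.

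The remaining marker lists had fewer genes past the test or lower summed levels. Endothelial markers had 1 of 7 higher and 0 lower, namely Cdh5 (log2 fold change 0.41), while Pecam1 had a log2 fold change of 0.18 and did not pass. Progenitor and fibroblast markers had 0 of 7 higher and 4 lower, Dcn (log2 fold change -0.32) among them, while Pdgfra had a log2 fold change of -0.26 and did not pass. Mesothelial markers had 1 of 4 listed genes lower, and Msln was not listed while Upk3b had a log2 fold change of -0.42 and did not pass. Each of the 5 mast cell markers was lower, including Cma1 (log2 fold change -1.56) and Cpa3 (log2 fold change -1.42). Skeletal muscle markers had 4 of 8 listed, all higher, among them Myh2 (log2 fold change 3.02) and Acta1 (log2 fold change 1.23), and their summed level was 19.0 to 27.4 CPM in control mice and 71.0 to 103 CPM in treated mice. Of the 6 markers for brown or beige adipocytes 4 were listed and 2 were higher, among them Cidea (log2 fold change 1.15), and Ucp1 was not listed. Hepatocyte markers had 2 of 4 higher, Apoa1 (log2 fold change 0.26) among them, while Alb had a log2 fold change of 0.14 and did not pass. None of the 5 markers for epididymis and testis, Crisp1 and Lcn5 included, were listed. The part of these cell types in the lipogenic differences was not tested.

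Ratios between 2 genes in the same mouse do not depend on the scaling of the library, but the mix of cells can change them. Of 7 such pairs, only the ratio of Fasn to Scd1, the desaturase that turns its saturated products into monounsaturated ones, differed between the groups. With the vehicle the log2 ratio was -1.98 ± 0.29 (SD, n = 5), and with IMC it was -2.91 ± 0.35 (SD, n = 6). The exact permutation test gave p = 0.00216, which was 0.0152 after BH adjustment over the 7 pairs. The ratio thus fell by 0.92 on the log2 scale (SE 0.19) and its ranges were separate, while the adjusted exact permutation p was 0.0556 when any treated mouse was left out. The log2 ratio of Acly to Acss2 changed by -0.26 (SE 0.12, exact permutation p = 0.0563, BH-adjusted p = 0.197). Acaca to Acacb changed by 0.12 (SE 0.15, exact permutation p = 0.437) and Srebf1 to Mlxipl by 0.16 (SE 0.10, exact permutation p = 0.147). Me1 changed by 0.23 (SE 0.13) relative to G6pdx, the first enzyme of the pentose phosphate pathway. Thrsp changed by 0.24 (SE 0.25) relative to its paralog Mid1ip1, and Slc25a1 by 0.25 (SE 0.20) relative to Acly. With single mice left out, these values fell as low as 0.05 for Acaca to Acacb without HFD + IMC mouse 1, 0.07 for Thrsp to Mid1ip1 without HFD mouse 1, and 0.15 for Slc25a1 to Acly and for Me1 to G6pdx without HFD + IMC mouse 6. None of these 6 passed the adjusted threshold, and their errors leave room for changes of the size seen for single genes.

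**Figure D4:**
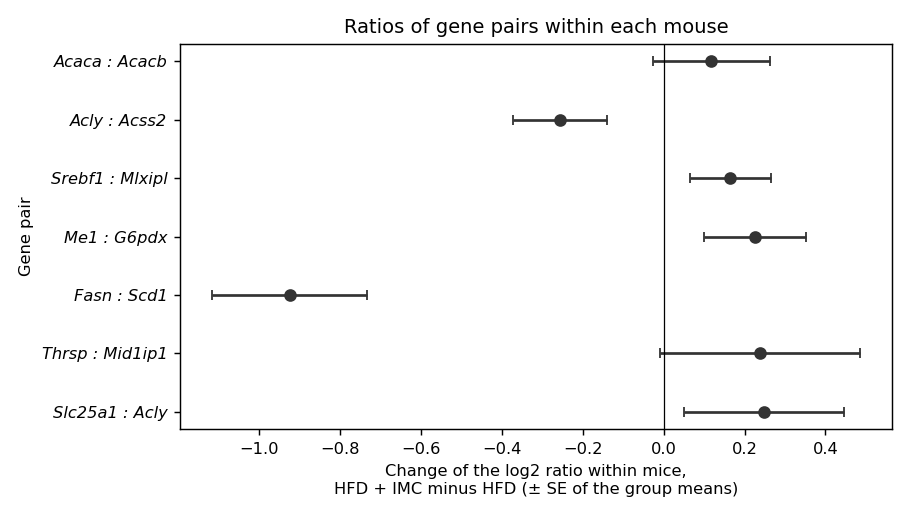
Change of the log2 ratio between 2 genes within each mouse (x-axis, mean of HFD + IMC minus mean of HFD, ± SE from the SDs of 5 and 6 mice) for 7 pairs. The Fasn to Scd1 ratio, at -0.92, is the only 1 that passed, and the others lie between -0.26 and 0.25.

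Further genes of the pathway were taken from 9 lists, which hold 117 listed genes. On the deposited scale 53 of them were higher and 13 lower, where 20.0% of all genes were higher and 21.0% lower. Relative to the adipocyte markers, which include Pparg of these lists, 2 were higher and 98 lower, where 91.9% of all genes were lower. The steps that lengthen and desaturate the product had 6 of 12 listed genes higher and 1 lower, with a median log2 fold change of 0.28. The count of lower genes was 0 without HFD mouse 1 or 3 and 2 without HFD mouse 2, 4 or 5. The smallest p values belonged to Hacd2 (log2 fold change 0.76), a dehydratase of fatty acid elongation, Fads3 (log2 fold change 0.67) and Scd1 (log2 fold change 1.31). Elovl3, an elongase, had a log2 fold change of 0.43 with overlap (SE 0.23, limma, BH-adjusted p = 0.159).

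Genes for the supply of citrate and acetyl-CoA had 12 of 17 listed genes higher and 2 lower, with a median of 0.34. They included Acss3 (log2 fold change 0.83), a mitochondrial short-chain acyl-CoA synthetase, Aco1 (log2 fold change 0.34), the cytosolic aconitase, and Pdha1 (log2 fold change 0.36), a subunit of pyruvate dehydrogenase. Slc25a11, the oxoglutarate carrier, had -0.07 and did not pass. Relative to the adipocyte markers 0 of the 17 genes were higher and 14 lower, where 91.9% of all genes were lower. Genes for NADPH, beside Me1, had 5 of 13 higher and 1 lower, and their median of 0.07 was close to that of all genes. Aldh1l1 (log2 fold change 0.85), an NADPH-forming enzyme of folate metabolism, changed most by p, followed by Rpe (log2 fold change 0.34) and G6pdx (log2 fold change 0.28). Pgd, which follows G6pdx in the pentose phosphate pathway, had a log2 fold change of 0.04 (SE 0.09, limma, BH-adjusted p = 0.781).

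Among the genes that process or degrade SREBP, 5 of 11 were higher and 1 lower, with a median of 0.05. Insig1, which holds SREBP in the endoplasmic reticulum, had 6.88 ± 0.19 (SD, n = 5) log2 CPM in control mice and 7.79 ± 0.18 (SD, n = 6) in treated mice (log2 fold change 0.91, SE 0.10, limma, BH-adjusted p = 3.5e-05). Lpin1 (log2 fold change 0.74), a phosphatidate phosphatase and coregulator, and Gsk3b (log2 fold change 0.21) were also higher, and Ccnc had a log2 fold change of 0.00. Partners of ChREBP and the LXR axis had 5 of 14 higher and 5 lower, with a median of -0.03, and 3 were lower without HFD mouse 1 or 2 or HFD + IMC mouse 2 or 4. Slc2a4, which encodes the insulin-responsive glucose transporter GLUT4, was at 4.96 ± 0.38 log2 CPM (SD, n = 5) with the vehicle and at 6.21 ± 0.19 (SD, n = 6) with IMC, a log2 fold change of 1.26 (SE 0.15, limma, BH-adjusted p = 6.07e-05). Pparg (log2 fold change 0.70), the master regulator of adipocytes, was higher and Usf1 (log2 fold change -0.33), an E-box binding factor, was lower. Mlx, the obligate partner of ChREBP, had a log2 fold change of -0.03 and did not pass.

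Genes that control the carboxylases had 2 of 11 higher, near the 20.0% of all genes, and 0 lower, with a median of 0.05. Both were subunits of AMP-activated protein kinase, which phosphorylates the carboxylases, Prkaa2 (log2 fold change 0.85) and Prkag2 (log2 fold change 0.23). Its upstream kinase Stk11 had a log2 fold change of -0.09 and Mid1ip1 one of 0.04, and neither passed. Mitochondrial fatty acid synthesis, a separate pathway that makes the precursor of lipoic acid, had 6 of 9 listed genes higher and 0 lower, with a median of 0.35. Mecr, Oxsm and Lias had log2 fold changes of 0.60, 0.40 and 0.35, and Ndufab1 had 0.17 and did not pass. Relative to the adipocyte markers 0 of these 9 genes were higher and 7 lower, where 91.9% of all genes were lower. In the insulin signaling list 10 of 16 genes were higher, 1 was lower and the median was 0.26. Akt2, Mtor and Rps6kb1, kinases between the insulin receptor and SREBP-1, had log2 fold changes of 0.44, 0.39 and 0.35, while Pik3ca had -0.01 and did not pass. The lower gene was Akt1 (log2 fold change -0.30, SE 0.06, limma, BH-adjusted p = 0.00128). Relative to the adipocyte markers 0 of the 16 insulin genes were higher and 15 lower, where 91.9% of all genes were lower. Clock genes, of which 14 were listed, had 2 higher and 2 lower, with a median of 0.06. Neither count was above the share of all genes, 20.0% higher and 21.0% lower. The count of lower clock genes was 0 without HFD + IMC mouse 1 or 4, 1 without HFD mouse 1, 3 or 4 or HFD + IMC mouse 3, 5 or 6, and 3 without HFD mouse 5. Cry2 (log2 fold change 0.61) and Clock (log2 fold change 0.29) were higher and Nr1d2 (log2 fold change -0.19) was lower, and Per1 had 0.02 and did not pass.

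**Figure D5:**
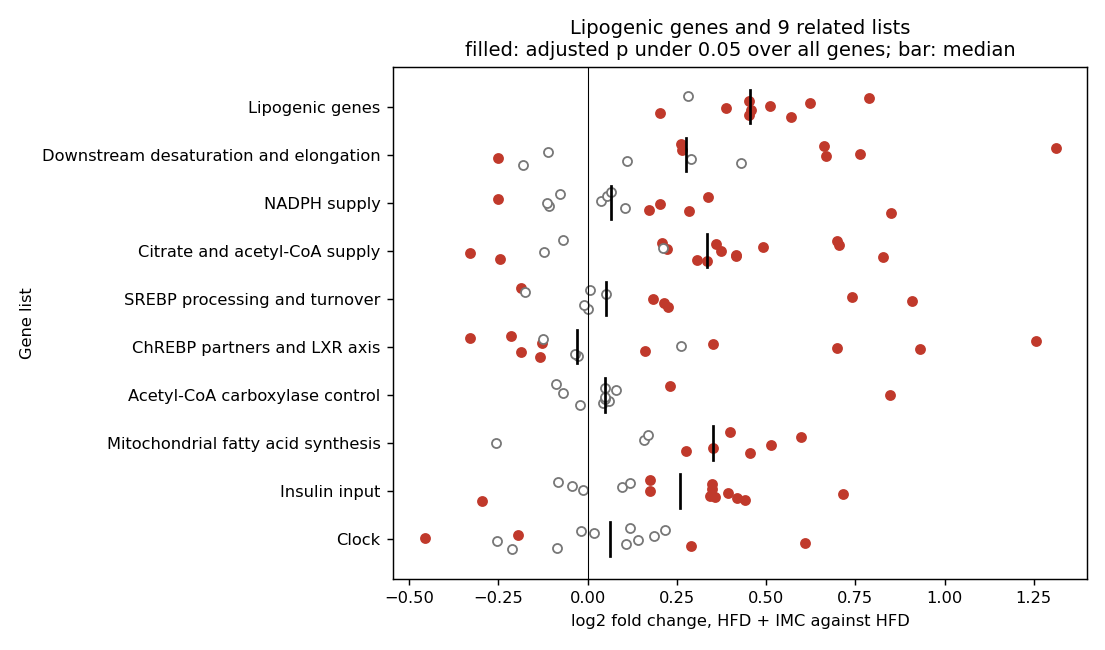
Log2 fold change on the deposited scale (x-axis, HFD + IMC against HFD) of the lipogenic genes (top row) and of the genes in 9 related lists, with 1 point per gene. Filled points passed an adjusted p under 0.05 over all genes by limma, and bars mark the median, which is 0.46 for the lipogenic genes and from -0.03 to 0.35 for the lists. Relative to the adipocyte markers, most genes of the lists had the opposite sign, where 91.9% of all genes were called lower.

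The genes most like the lipogenic genes were sought by the root-mean-square distance over the 11 mice between centred log2 CPM and the mean of the 10 genes. The nearest were Tcaf2 (distance 0.07), Pygb (distance 0.07), which encodes brain-type glycogen phosphorylase, Mvk (distance 0.07), the mevalonate kinase of sterol synthesis, Snrk (distance 0.07) and Pcca (distance 0.08), a subunit of propionyl-CoA carboxylase. The median distance of all other genes was 0.33. Log2 fold changes of the nearest genes were between 0.42 and 0.51. The distance includes the group difference, so this likeness follows from how they were chosen. Among the 10 genes themselves, Me1 was nearest to the mean with a distance of 0.07 and Thrsp was farthest with 0.26.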

How the data were processed

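RNA from gonadal WAT of 5 HFD and 6 HFD + IMC mice was sequenced from directional mRNA libraries, and groups follow the treatment in the sample labels. Trimming (Trim Galore), alignment to mm10 (STAR), gene counts, a filter on low transcripts and upper-quartile scaling were done by the authors, who deposited log2 CPM values from edgeR. Columns with the authors' own comparison (fold change, mean level, statistic, p and FDR) were not used. Values moved in whole-read steps (100% within 0.05 reads), which gave the read totals and the reads for 2 alternatives. The 10 genes had 551 to 56665 reads per mouse, and counting errors cover counting only.

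Groups were compared with limma 3.58.1 in R 4.3.3 (trend on the mean level) on all 12787 genes with BH adjustment. Single genes and ratios were also tested by two-sided exact permutation over mice. The study housed mice in shared cages, and which of these mice shared one is not stated, so p-values measure the spread between mice that may not be fully independent. Exon lengths and positions came from GENCODE vM21 (GRCm38) and promoters from RefSeq (GRCm38.p6), where all 10 symbols matched. The strand setting of the counts is not given in the sources used here, so overlapping genes could share reads.

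The 10 genes and all lists were chosen with earlier results of these data known. Named genes are the 10, both genes of each pair, the 3 smallest and the 1 largest p of each list, the first 2 markers of each cell type and the 5 nearest genes, and 1 marker list is not reported here. The overlapping genes Rai1, Gss and Ggt7, and Akt1 of the insulin list, were added after their values were seen.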

Additional observations from a re-analysis of the deposited data

How the results depend on the processing

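The calls of all 10 genes were the same without the variance trend, with array weights and robust empirical Bayes, with centring on the median of all genes, with a mean of at least 1 log2 CPM, with 2 reads added before the log and with limma voom on the recovered reads. Centring on the adipocyte markers reversed the sign of all 10. The log2 fold changes were then -0.40 for Fasn, -0.22 for Acaca, -0.34 for Acacb, -0.59 for Acly, -0.33 for Acss2, -0.28 for Me1, -0.34 for Slc25a1, -0.0021 for Srebf1, -0.17 for Mlxipl and -0.51 for Thrsp. Under it 0 of the 10 genes were higher and 7 lower, 2 genes of the other lists were higher and 98 lower, and over all genes 84 were higher and 11749 lower, beside 2556 and 2680 on the deposited scale. The markers themselves were 0.79 higher with IMC, which this scaling subtracts. With each mouse left out in turn, 8 to 9 genes were called higher. Slc25a1 had log2 fold changes between 0.36 and 0.54 and was called in 7 of the 11 fits. The Fasn to Scd1 ratio changed by between -0.997 and -0.806, and its adjusted exact p was 0.0556 without any 1 of the treated mice, the smallest that test could then reach. The other 9 genes kept their calls. In the 9 related lists together 48 to 55 genes were higher and 9 to 16 lower. The number of lower genes ran from 0 to 3 for the clock list, 0 to 2 for desaturation and elongation, 3 to 5 for ChREBP partners, 1 to 2 for SREBP processing (2 without HFD mouse 5) and 0 to 1 for mitochondrial fatty acid synthesis (1 without HFD + IMC mouse 6). Ranking genes by Pearson r after subtracting group means shared 0 of the 5 nearest genes. The distance depends on the group difference and on the size of the changes, and this r on neither, so the 2 rank different traits. No paired analysis was possible because the labels give no replicate number shared between the groups. The depth of at least 551 reads per gene and mouse gave a counting error of at most 0.06 on the log2 scale.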

Other observations

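After the group means were subtracted, the genes that varied most like the 10 lipogenic genes across the 11 mice were Ttc38 (r = 0.96), Gys1 (r = 0.96), which encodes glycogen synthase, Sez6l (r = 0.95), Slc6a13 (r = 0.94) and Icam2 (r = 0.94). These values describe the 11 mice, which share the tissue composition of each library, and carry no test.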
